A study of Homo sapiens with 13 samples.

Results

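The 10 genes described here encode keratins of simple epithelium (KRT8, KRT18 and KRT19), epithelial adhesion molecules (CDH1 and EPCAM), claudins of the tight junction (CLDN3, CLDN4 and CLDN7) and the epithelial splicing regulators ESRP1 and ESRP2. They were chosen by symbol, 10 of 22613 gene entries, and each had an entry in every library. RNA was sequenced from LNCaP-abl, a prostate cancer line derived from LNCaP that grows without androgen, kept in hormone-stripped serum. Cells were harvested 72 h after transfection with an siRNA pool against 1 of 12 factors, or with the control pool siControl2. The targets were the DNA repair genes BRCA1 and BRCA2, the chromatin loop factors CTCF and RAD21, the Polycomb subunits EED and EZH2, the forkhead factors FOXA1 and FOXM1, the histone demethylase KDM1A, the remodeller SMARCA4 and the long noncoding RNAs MALAT1 and PCAT1. Each of the 13 conditions had 1 library, so no difference carries a replicate error, no test was possible, and all 12 differences share 1 control library. Levels are FPKM, fragments scaled to transcript length and library size, and sequencing depth is unknown. Differences are the knockdown minus siControl2 on the log2(FPKM + 1) scale, which understates changes of low genes.

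Simple epithelia carry intermediate filaments in which a type II keratin, such as keratin 8, pairs with a type I keratin, such as keratin 18 or 19, and luminal prostate cells are marked by keratins 8 and 18. E-cadherin, the product of CDH1, joins neighbouring cells at adherens junctions through catenins, and claudins form the seal of the tight junction nearer the apical side. ESRP1 and ESRP2 bind RNA and direct epithelial splice forms of transcripts such as those of FGFR2, CD44, ENAH and CTNND1. These genes are often followed together, because loss of their expression marks the shift of epithelial cells to a mesenchymal state.

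CLDN3 and CLDN4 are neighbours on chromosome 7, and over the 13 libraries their levels were the most alike of any 2 of the 10 genes, though not without siFOXA1 and siFOXM1. The 250 bases upstream of the starts of CLDN3 and CLDN4, and of both annotated starts of CLDN7, whose levels followed another order, are given here from RefSeq (GRCh38.p14), 5′ to 3′ on the gene's strand. Capitals mark matches on either strand to GGGCGG (the GC box), to TGANTCA (the AP-1 site), to CAGGTG (the E2-box), to CCAAT (the CCAAT box), to TATAAA (the TATA box) or to TGTTTAC (the forkhead core), and overlapping matches were merged.
CLDN3, chr7:73770271-73770520, minus strand: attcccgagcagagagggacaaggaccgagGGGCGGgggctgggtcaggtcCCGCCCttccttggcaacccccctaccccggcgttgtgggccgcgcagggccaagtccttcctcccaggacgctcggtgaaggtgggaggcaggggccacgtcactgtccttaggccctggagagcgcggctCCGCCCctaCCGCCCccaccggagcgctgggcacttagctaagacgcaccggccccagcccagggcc
CLDN4, chr7:73830746-73830995, plus strand: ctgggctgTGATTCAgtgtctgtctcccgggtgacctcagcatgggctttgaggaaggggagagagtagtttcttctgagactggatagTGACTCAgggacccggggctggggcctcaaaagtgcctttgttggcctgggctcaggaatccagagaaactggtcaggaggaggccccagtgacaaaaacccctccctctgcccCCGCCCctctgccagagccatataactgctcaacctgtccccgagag
CLDN7 start 1, chr17:7263214-7263463, minus strand: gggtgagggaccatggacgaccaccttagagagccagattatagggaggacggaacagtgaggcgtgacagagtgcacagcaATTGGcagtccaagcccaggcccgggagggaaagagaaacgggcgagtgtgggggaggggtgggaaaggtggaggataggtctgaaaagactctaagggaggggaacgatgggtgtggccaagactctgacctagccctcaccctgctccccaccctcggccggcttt
CLDN7 start 2, chr17:7262479-7262728, minus strand: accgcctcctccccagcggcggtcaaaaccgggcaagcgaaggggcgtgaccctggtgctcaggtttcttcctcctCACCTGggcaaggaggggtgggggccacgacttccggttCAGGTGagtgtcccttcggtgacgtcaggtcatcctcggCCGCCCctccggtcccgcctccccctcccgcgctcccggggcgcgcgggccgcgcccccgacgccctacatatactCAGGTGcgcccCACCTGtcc

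The CLDN3 stretch held 4 GC boxes and was 71.6% G and C. The CLDN4 stretch held 2 AP-1 matches and 1 GC box and was 58.8% G and C, close to the median of 58% over all promoters in the table. CLDN7 start 1 held 1 CCAAT match, and CLDN7 start 2 held 4 matches to CAGGTG, a hexamer bound by Snail and ZEB repressors, and 1 GC box. Of the 35116 promoter windows of this length, 42.6% held GGGCGG, 6.57% TGANTCA, 17.5% CAGGTG and 32.0% CCAAT. The forkhead core, present in 2.98% of windows, and the TATA box, in 10.7%, had no match in these 4 stretches. The match counts describe letters in these windows. KRT8 also had a promoter entry, and KRT18, KRT19, CDH1, EPCAM, ESRP1 and ESRP2 had none.

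The target of the siRNA was the lowest of the 13 libraries in its own library for 8 of 11 targets, at 2.35% (FOXM1) to 46.2% (EED) of siControl2. BRCA1 was the 3rd lowest and BRCA2 the 9th lowest in their own libraries, though both were below siControl2, at 16.5% and 37.8% of its level. MALAT1 stood at 21.7 FPKM in the library labelled siMALAT1 against 16.4 in siControl2, so its target was not lower there, for a reason that was not tested. The PCAT1 transcript itself is not analysed here. In siFOXA1, FOXA1 kept 44.2% of the siControl2 level, while FOXM1 was also low, at 1.75 FPKM in siFOXA1 against 20.1 in siControl2. siFOXA1 and siFOXM1 stood apart from the other libraries: over the 15786 genes kept, 30.1% had their highest or lowest level of the 13 libraries in siFOXA1 and 21.7% in siFOXM1. The mitotic gene CDC20 was at 4.0 FPKM in siFOXA1 and 4.54 FPKM in siFOXM1, against 64.5 FPKM in siControl2. FOXM1 and CDC20 were below siControl2 in all 12 knockdowns, and both were next lowest in siEZH2. Low levels of these genes were thus not particular to siFOXA1 and siFOXM1. The interferon-induced gene OASL was at 65.6 FPKM in siFOXA1 and 437 FPKM in siFOXM1, against 0.831 FPKM in siControl2. Its next highest level was 19.8 FPKM, in siBRCA2. For some of the statements that span all libraries, values are therefore given with and without these 2 libraries. Ranges, SDs and most of the other values include both.

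Luminal markers were present in every library: HOXB13 ranged from 77.6 to 160 FPKM and TMPRSS2 from 14.6 to 52.8 FPKM. KLK3, which encodes prostate-specific antigen, stayed at 0.0165 to 0.524 FPKM. Of the 3 basal markers, only KRT14 had an entry, at 0.830 FPKM in siFOXA1 and at most 0.128 FPKM elsewhere. The listed fibroblast markers summed to 1.15 to 3.77 FPKM, and the single listed endothelial marker, PECAM1, was at 0.637 to 1.01 FPKM. The 4 listed neuroendocrine markers of 7 summed to 25.8 to 57.8 FPKM, highest in siControl2 and mostly ENO2, the 3 smooth muscle markers to 6.28 to 15.1 FPKM, and the 2 listed leukocyte markers to 4.85 to 12.2 FPKM, highest in siFOXM1. In RNA from whole cultures, fewer cells of a type and less RNA per cell cannot be told apart.

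**Figure D1:**
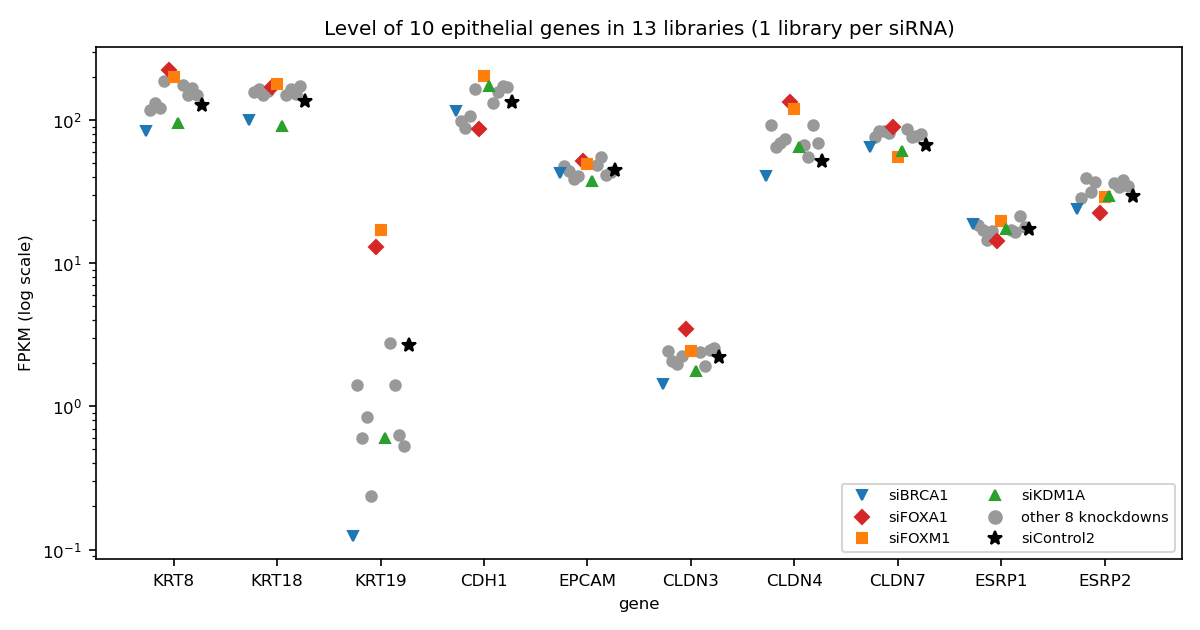
Level of the 10 genes in FPKM (log scale) in the 13 libraries, 1 point per library. The keratin pair KRT8 and KRT18 and the cadherin CDH1 are the most abundant, CLDN3 and KRT19 the least, and KRT19 alone spreads over more than 1 decade. In the legend, the library labelled siMALAT1 is among the other 8 knockdowns.

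KRT8 and KRT18, the 2 partners of the simple epithelial filament, were abundant in every library. KRT8 was highest in siFOXA1 (223 FPKM), siFOXM1 (201 FPKM) and siEZH2 (188 FPKM), and lowest in siBRCA1 (84.2 FPKM) and siKDM1A (95.4 FPKM). Its remaining values were 175 FPKM in the library labelled siMALAT1, 167 in siRAD21, 151 in siSMARCA4, 149 in siPCAT1, 131 in siCTCF, 121 in siEED and 118 in siBRCA2, against 127 FPKM in siControl2. Thus siControl2 lay in the middle of a range of 2.64-fold, with 8 knockdowns above it and 4 below. By the rule of 1.5-fold (0.585 on the log2(FPKM + 1) scale) used here to describe a difference, KRT8 was higher in siFOXA1 (0.81) and siFOXM1 (0.66) and lower in siBRCA1 (-0.59), where it only just reached the rule. Against the median over the other knockdowns, both higher values fell short of the rule (0.58 in siFOXA1 and 0.43 in siFOXM1), siBRCA1 stayed lower (-0.83) and siKDM1A was lower too (-0.65).

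KRT18 varied less, from 90.6 FPKM in siKDM1A and 99.6 FPKM in siBRCA1 to 179 FPKM in siFOXM1, against 136 FPKM in siControl2. It was above siControl2 in 10 of the 12 knockdowns, from 149 FPKM in siEED upwards, and passed the 1.5-fold rule in none. Its lowest difference, -0.58 in siKDM1A, just missed the rule, and it passed with a pseudocount of 0.1 or after centring (-0.59 each). Against the median over the other knockdowns, KRT18 was 1.5-fold lower in siKDM1A (-0.80) and siBRCA1 (-0.67). The same 2 libraries, siBRCA1 and siKDM1A, were lowest for both partners. The ratio of KRT8 to KRT18 was 0.930 in siControl2 and ranged from 0.756 in siBRCA2 to 1.31 in siFOXA1. It was above 1 in 6 libraries: siFOXA1, siEZH2 (1.19), the library labelled siMALAT1 (1.16), siFOXM1 (1.12), siRAD21 (1.10) and siKDM1A (1.05). The pseudogene entries KRT8P41 and KRT18P55 were at most 1.71 and 1.58 FPKM, and adding them to their parents left the count at 6.

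KRT19, a type I keratin of simple and transitional epithelia, was the most variable of the 10 genes. It reached 17.2 FPKM in siFOXM1 and 12.9 FPKM in siFOXA1, while the library labelled siMALAT1 had 2.78 FPKM, against 2.71 FPKM in siControl2. All other knockdowns were lower: 1.42 FPKM in siBRCA2, 1.4 in siPCAT1, 0.847 in siEED, 0.634 in siRAD21, 0.604 in siCTCF, 0.597 in siKDM1A, 0.528 in siSMARCA4, 0.238 in siEZH2 and 0.125 in siBRCA1. The differences were 2.29 in siFOXM1 and 1.91 in siFOXA1, while the 9 low libraries lay between -0.62 (siBRCA2) and -1.72 (siBRCA1). The highest library, siFOXM1, was 138 times the lowest, siBRCA1, whose 0.125 FPKM lies close to the floor of the values. The SD over the 13 libraries was 1.26 on the log2 scale, beside a median of 0.24 over all genes kept. That ratio and the SD of KRT19 include siFOXA1 and siFOXM1. Without siFOXA1 and siFOXM1, the siControl2 level was the second highest of the 11 libraries. The size of the 9 low differences thus depends on the single control. Against the median over the other 11 knockdown libraries, KRT19 stayed 1.5-fold lower in siBRCA1 (-0.72) and fell just short in siEZH2 (-0.58). It lay between -0.27 (siSMARCA4) and -0.18 (siRAD21) in siSMARCA4, siKDM1A, siCTCF and siRAD21. KRT19 stood above that median by 0.57 in siBRCA2, 0.55 in siPCAT1 and 0.18 in siEED, the opposite side. In the library labelled siMALAT1 it was above by 1.21. OASL was also highest in siFOXM1 and siFOXA1. Its r with KRT19 was 0.73 (Spearman's rho 0.09), and -0.48 without those 2 libraries. A part of OASL in the KRT19 levels was not tested. KRT14, another type I keratin of the same cluster on chromosome 17, was at 0.830 FPKM in siFOXA1 and 0.128 FPKM in siFOXM1 against 0.00459 FPKM in siControl2.

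CDH1 split the knockdowns evenly, with 6 above siControl2 and 6 below. It was highest in siFOXM1 (203 FPKM), then siRAD21 (174 FPKM), siKDM1A (173 FPKM), siSMARCA4 (169.7 FPKM), siEZH2 (166 FPKM) and siPCAT1 (156 FPKM). Below the 135 FPKM of siControl2 came the library labelled siMALAT1 (132 FPKM), siBRCA1 (115 FPKM), siEED (106 FPKM), siBRCA2 (98.3 FPKM), siCTCF (88.5 FPKM) and siFOXA1 (87.3 FPKM). CDH1 thus lay at opposite ends in siFOXM1 and siFOXA1, the 2 libraries in which KRT8, KRT19 and CLDN4 were all high. At 1.5-fold it was higher in siFOXM1 (0.59) and lower in siFOXA1 (-0.62) and siCTCF (-0.60), all within 0.04 of the rule. The value in siFOXM1 fell short after centring (0.57). Against the median over the other knockdowns these 3 stayed past the rule, and siBRCA2 was lower as well (-0.66).

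EPCAM, an epithelial surface glycoprotein, was among the steadiest, between 37.7 FPKM in siKDM1A and 55.1 FPKM in siPCAT1, against 45.1 FPKM in siControl2. No knockdown moved it 1.5-fold, and its SD was 0.16 on the log2 scale.

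CLDN4 was above siControl2 in 11 of 12 knockdowns. It stood at 134 FPKM in siFOXA1 and 119.7 FPKM in siFOXM1, then 92.3 FPKM in siRAD21 and 92.2 FPKM in siBRCA2. The others followed at 73.3 FPKM in siEZH2, 69.5 in siSMARCA4, 68.9 in siEED, 67.4 in the library labelled siMALAT1, 65.2 in siCTCF, 64.5 in siKDM1A and 55.6 in siPCAT1, against 51.6 FPKM in siControl2. Only siBRCA1, at 40.6 FPKM, was below the control. CLDN4 was at least 2-fold higher in siFOXA1 (1.36) and siFOXM1 (1.20), and at least 1.5-fold higher also in siRAD21 (0.83) and siBRCA2 (0.82). Being above siControl2 in 11 or more of the knockdowns was true of 12.3% of all genes kept, since every comparison uses the same control. With the other knockdowns as the reference, only siFOXA1 (0.95) and siFOXM1 (0.79) stayed 1.5-fold higher and siBRCA1 (-0.76) was lower. OASL was highest in siFOXM1 and siFOXA1, then in siBRCA2 (19.8 FPKM) and then in siBRCA1 (8.94 FPKM), where CLDN4 was lowest. CLDN4 and OASL had r = 0.73, and 0.32 without siFOXA1 and siFOXM1. A part of OASL in the CLDN4 levels was not tested.

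CLDN3 was low throughout, with 3.48 FPKM in siFOXA1, 1.43 FPKM in siBRCA1 and all other libraries between 1.78 and 2.54 FPKM, against 2.22 FPKM in siControl2. CLDN7 ranged from 55.1 FPKM in siFOXM1 to 89.2 FPKM in siFOXA1, against 66.7 FPKM in siControl2, and was above the control in 9 of 12 knockdowns. Neither passed 1.5-fold on the log2(FPKM + 1) scale in any knockdown. With a pseudocount of 0.1, which damps low genes less, CLDN3 passed it in siFOXA1 (0.63) and in siBRCA1 (-0.60). CLDN3 and CLDN4 shared their highest library, siFOXA1, and their lowest, siBRCA1, while CLDN7 had its lowest level in siFOXM1, where CLDN4 was the second highest. The ratio of CLDN4 to CLDN7 was therefore 2.17 in siFOXM1, 1.5 in siFOXA1 and 0.623 in siBRCA1, against 0.774 in siControl2. It was above 1 in 5 libraries, the others being siBRCA2 (1.21), siRAD21 (1.18) and siKDM1A (1.06).

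**Figure D2:**
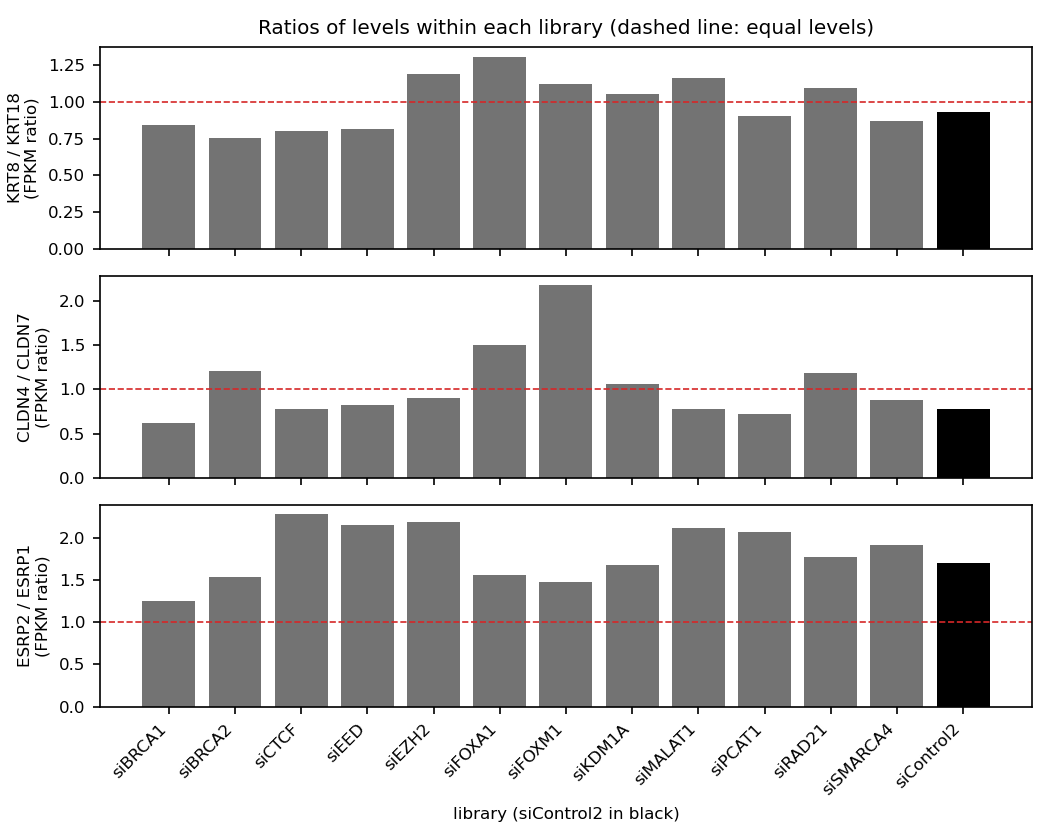
Ratios of FPKM between related members in each library, with the knockdowns in grey, siControl2 in black and equal levels as a dashed line. The ESRP2 to ESRP1 ratio is above 1 in all 13 libraries, the CLDN4 to CLDN7 ratio runs from 0.623 in siBRCA1 to 2.17 in siFOXM1, and the KRT8 to KRT18 ratio from 0.756 in siBRCA2 to 1.31 in siFOXA1.

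The splicing regulators moved little. ESRP1 lay between 14.4 FPKM in siFOXA1 and 21.4 FPKM in siRAD21, against 17.4 FPKM in siControl2, and its SD of 0.15 was the lowest of the 10 genes. ESRP2 was highest in siCTCF (39.1 FPKM), siRAD21 (38.0 FPKM), siEZH2 (36.7 FPKM) and the library labelled siMALAT1 (36.0 FPKM), and lowest in siFOXA1 (22.3 FPKM) and siBRCA1 (23.8 FPKM), against 29.6 FPKM in siControl2. Neither passed 1.5-fold against siControl2 in any knockdown, while against the median over the other knockdowns ESRP2 in siFOXA1 did (-0.59). ESRP2 was the more abundant in all 13 libraries, by a ratio of 1.26 in siBRCA1 to 2.28 in siCTCF, against 1.70 in siControl2. The FPKM are per gene, so they hold no information on splice forms.

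**Figure D3:**
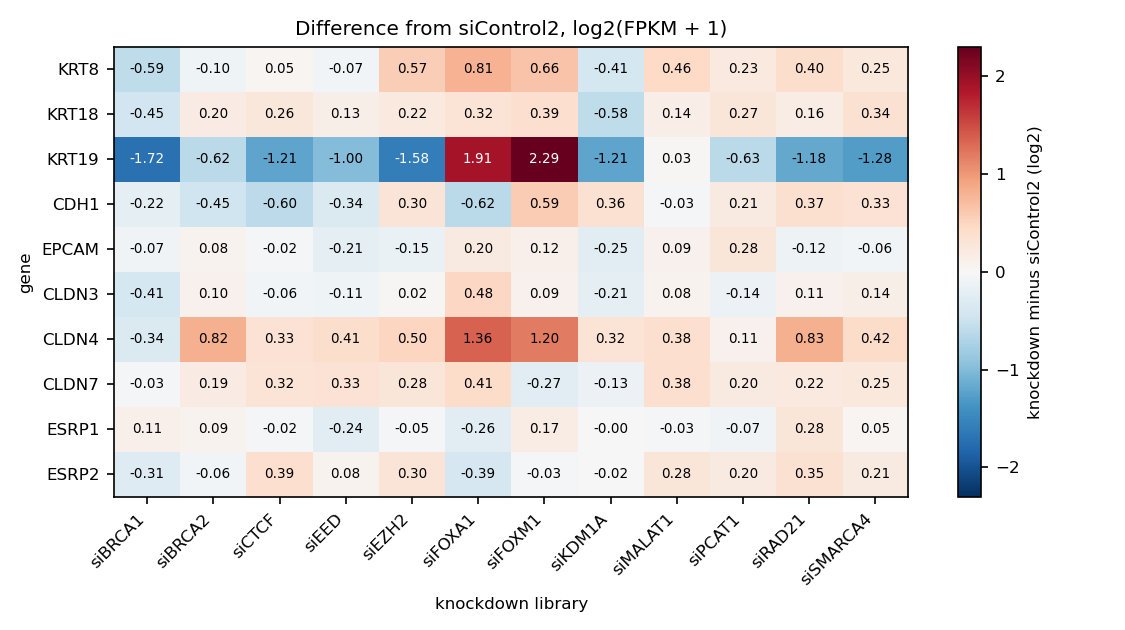
Difference of each gene (rows) in each knockdown (columns) from siControl2 on the log2(FPKM + 1) scale, 1 library per cell. KRT19 is the only row with cells beyond 1.5 in size, positive in siFOXA1 and siFOXM1 and negative in siBRCA1 and siEZH2, and the EPCAM and ESRP1 rows reach 0.28 at most.

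Over the 120 pairs of a gene and a knockdown, 9 were at least 1.5-fold higher and 12 at least 1.5-fold lower than siControl2, beside 4.83% and 6.22% of all pairs over the genes kept. At 2-fold the counts were 4 higher and 7 lower, beside 1.10% and 2.04%. KRT19 made up 9 of the 12 lower pairs and all 7 at 2-fold. Without KRT19, 7 of 108 pairs were 1.5-fold higher and 3 lower. The members with at least 1 such pair were KRT8, KRT19, CDH1 and CLDN4.

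By library, siFOXM1 had 4 members 1.5-fold higher and none lower (background 8.54% higher, 9.07% lower), and siFOXA1 had 3 higher and 1 lower (11.1%, 10.9%). The higher ones were KRT8, KRT19 and CLDN4 in both and CDH1 in siFOXM1. Members lower by 1.5-fold were KRT8 and KRT19 in siBRCA1 (5.35% of all genes lower, 2.62% higher) and KRT19 and CDH1 in siCTCF (7.37% lower, 5.76% higher). siBRCA2 and siRAD21 each had CLDN4 higher and KRT19 lower, beside 3.19% higher and 4.04% lower in siBRCA2 and 4.70% and 6.16% in siRAD21. KRT19 was the single lower member in siEED (4.10% of all genes lower, 3.47% higher), siEZH2 (7.33%, 5.41%), siKDM1A (6.72%, 4.82%), siPCAT1 (4.23%, 2.21%) and siSMARCA4 (5.23%, 3.34%). The library labelled siMALAT1 had none either way, beside 2.74% higher and 4.19% lower. The median over the 10 members ran from -0.32 in siBRCA1 to 0.37 in siFOXA1, while the median over all genes lay between 0.01 and 0.05 in every library.

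siFOXA1 held the highest or lowest level of the 13 libraries for 7 of the 10 genes, beside 30.1% of all genes. It was the highest for KRT8, CLDN3, CLDN4 and CLDN7 and the lowest for CDH1, ESRP1 and ESRP2. siFOXM1 was highest for KRT18, KRT19 and CDH1 and lowest for CLDN7. siBRCA1 was lowest for KRT8, KRT19, CLDN3 and CLDN4, 4 of the 10 beside 16.2% of all genes at an extreme there. The 10 genes thus did not move as a block in siFOXA1: KRT8 and the 3 claudins were at the top of their range, and E-cadherin and both ESRP genes at the bottom.

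Likeness between members is described by Pearson's r of log2(FPKM + 1) over the 13 libraries, which share 1 normalization. CLDN3 and CLDN4 had r = 0.83 (Spearman's rho 0.83), and 0.77 over the 11 libraries without siFOXA1 and siFOXM1. ABHD11 and METTL27, the genes on either side of the pair, had r of 0.16 with CLDN3 and -0.20 with CLDN4. KRT8 and KRT18, also adjacent, with overlapping annotated intervals on chromosome 12, had r = 0.79 (0.78 without the 2 libraries). Whether KRT8 and KRT18 shared reads through that overlap was not tested. KRT8 was also like CLDN3 (0.81; 0.76 without). KRT19 and CLDN4 had r = 0.69 over all libraries and 0.045 without siFOXA1 and siFOXM1, so that likeness rests on those 2 libraries. Of the 45 pairs, 12 had r of at least 0.5 and 2 of at most -0.5, with a median of 0.23. Without siFOXA1 and siFOXM1, 14 pairs had r of at least 0.5 and the median was 0.24, but 16 of the 45 pairs crossed 0.5 in size. KRT8 and ESRP2 had r = 0.85 without the 2 libraries and 0.19 with them, and KRT18 and CLDN7 had 0.84 and 0.46.

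ESRP2 followed FOXA1, the pioneer factor of luminal cells, with r = 0.86, rho = 0.87 and r = 0.78 without siFOXA1 and siFOXM1, a pair chosen after its values were seen. FOXA1 was lowest in siFOXA1 (60.6 FPKM), siBRCA2 (91.2 FPKM) and siBRCA1 (100.2 FPKM) and highest in siEZH2 (175 FPKM), against 137 FPKM in siControl2. The gene most like ESRP2 among 7967 compared was CREB3L4, a transcription factor of the endoplasmic reticulum membrane (r = 0.93; 0.91 without the 2 libraries), followed by LOC647859 and TBRG1.

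**Figure D4:**
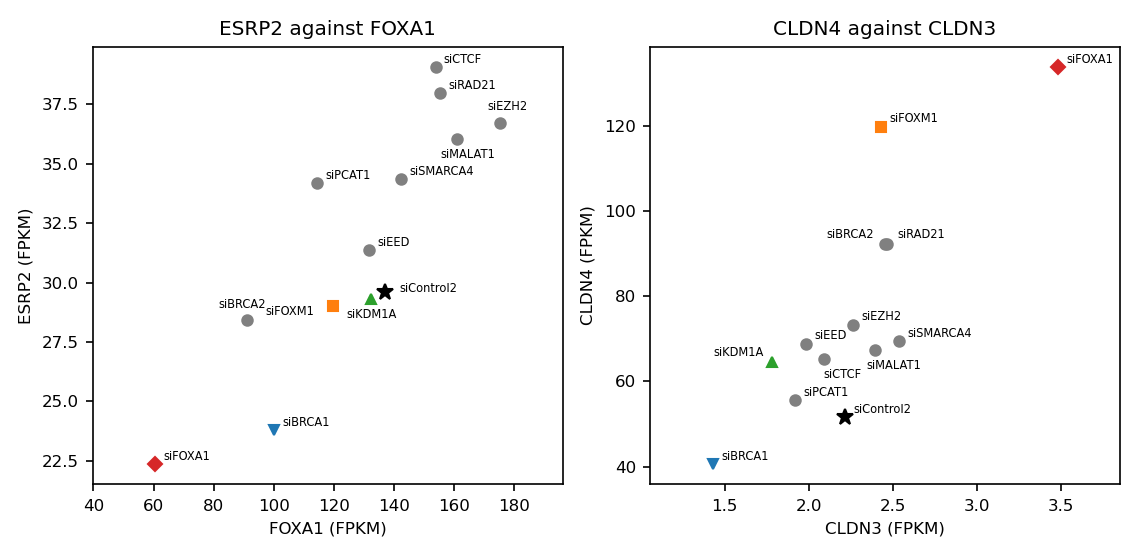
ESRP2 against FOXA1 (left) and CLDN4 against CLDN3 (right) in FPKM, 1 point per library, with siControl2 as a star. ESRP2 is lowest where FOXA1 is lowest, in siFOXA1, and CLDN4 and CLDN3 are both highest in siFOXA1 and lowest in siBRCA1.

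The 3 genes most like each other member were named by the same rule. For KRT8 they included MICALL2 (r = 0.94; 0.91 without siFOXA1 and siFOXM1) and STXBP2. For KRT18 they were FLII, an actin-remodelling protein (0.93; 0.92 without, but rho = 0.62), LENG1 and CLU (0.83, but rho = 0.62). GBP1, an interferon-induced GTPase, was the most like KRT19 (0.92), but at 0.49 without the 2 libraries. ULBP2 and ROM1 followed (0.91 each), at 0.51 and 0.57 without them. CDH1 was followed by PLBD2 (0.90), SOAT1 and KCND3, and EPCAM by ZNF613 (0.93), GPR137C and ALAS1. CLDN3 had GCHFR (0.91), PPIA and MGAT4A, CLDN4 had TRIM38 (0.92), SYBU and C11orf52, and CLDN7 had PMS2P4 (0.92), TRAPPC6B and FGGY. ESRP1 had CHD9 (0.92), FZD4 and NAPEPLD.

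Among the other adherens junction genes, 9 of 13 listed symbols were kept. The rest, NECTIN1, NECTIN2, NECTIN4 and AFDN, are other names of PVRL1, PVRL2, PVRL4 and MLLT4, which were kept. Of the pairs, 12 of 108 were 1.5-fold higher and 3 lower than siControl2. Over all genes kept the shares were 4.83% and 6.22%, the background for each list that follows. PVRL4 alone gave 7 of the 12 higher pairs, and only siBRCA1 had less of it than siControl2. In siFOXA1, where CDH1 was at its lowest, the median of these 9 was 0.64, and 5 were 1.5-fold higher, beside 11.1% of all genes in that library. These 5, named after their values were seen, were CTNNA1 (144 FPKM in siFOXA1 against 88.2 in siControl2), which links cadherin to actin, the nectins PVRL1 (15.2 against 6.99), PVRL2 (5.01 against 2.87) and PVRL4 (18.9 against 8.24), and the nectin partner MLLT4 (20.4 against 11.1). The beta-catenin gene CTNNB1 was at 113 FPKM in siFOXA1 against 140.3 FPKM in siControl2, and plakoglobin (JUP) at 71.5 against 78.1 FPKM. CTNNB1 and JUP thus lay on the same side of the control as CDH1 in that library, and the 5 genes above on the other. On that other side too, by less than 1.5-fold, were CTNND1 (67.9 against 48.5 FPKM) and VCL (34.7 against 31.7 FPKM). CTNNA1 and CTNND1 are catenin genes as well, so the catenins did not move together.

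Of 18 tight junction and polarity symbols, 15 were kept, with 12 of 180 pairs 1.5-fold higher and 7 lower. Among the symbols without an entry, PATJ and PALS1 are other names of INADL and MPP5, which were kept. Cingulin (CGN), which tethers the junction to actomyosin, was above siControl2 in all 12 knockdowns, 1.5-fold in 9, with 50.0 FPKM in siFOXM1 and 43.2 FPKM in siCTCF against 16.1 FPKM in siControl2. The scaffold TJP1 was at 93.8 FPKM in siRAD21 and 24.0 FPKM in siFOXA1, against 43.6 FPKM in siControl2, and occludin (OCLN) stayed between 40.0 and 64.9 FPKM. Among 17 other claudin symbols, 8 were kept, with 4 of 96 pairs higher and 3 lower. Of the desmosome genes, 1 of 108 pairs was higher and 4 were lower. DSG2, named after its values were seen, gave 3 of the 4: -0.64 in siBRCA1, -0.88 in siEED and -1.04 in siFOXM1. The desmosome-associated gene PKP4 was below siControl2 in all 12, lowest in siFOXA1 (11.6 FPKM against 31.1 FPKM). Of the simple keratins beyond the members, KRT80 alone was kept, at 3.94 FPKM in siFOXA1 and 0.349 FPKM in siBRCA1, against 1.63 FPKM in siControl2.

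Epithelial transcription factors had 15 of 108 pairs 1.5-fold higher and 3 lower. ELF5 was above siControl2 in all 12 knockdowns and at least 2-fold higher in siPCAT1 (36.7 FPKM), siFOXM1 (36.5 FPKM) and siFOXA1 (29.3 FPKM), against 14.1 FPKM in siControl2. ELF3 was highest in siFOXM1 (39.0 FPKM against 13.8 FPKM). GRHL2, a known activator of CDH1 and claudin genes, was above siControl2 in all 12 but by less than 1.5-fold, at most 41.1 FPKM in siEZH2 against 28.9 FPKM. For scale, 4.77% of all genes kept were above siControl2 in all 12 knockdowns and 5.28% were below. The epithelial surface list had 19 of 192 pairs higher and 8 lower, with RAB25 above siControl2 in all 12 and CD24 at least 2-fold lower in 4.

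Of 10 EMT transcription factor symbols, only SNAI1, SNAI3 and TCF4 were kept, none above 2.80 FPKM, and 1 of 36 pairs passed 1.5-fold: SNAI1 at 2.14 FPKM in siFOXA1 against 0.938 FPKM in siControl2. ZEB1, a repressor of CDH1 named after its values were seen, averaged 0.437 FPKM, under the filter. It was above siControl2 in all 12 knockdowns, with 0.834 FPKM in siFOXA1 and 0.793 FPKM in siFOXM1 against 0.213 FPKM, differences of 0.60 and 0.56. Mesenchymal genes had 13 of 72 pairs higher and 3 lower, 7 of these 16 from COL5A2, a fibrillar collagen chain. COL5A2 was at 51.9 FPKM in siRAD21, 49.4 FPKM in siEZH2 and 28.0 FPKM in siCTCF, and at 5.53 FPKM in siFOXA1, against 12.6 FPKM in siControl2. Vimentin (VIM) was low, between 0.362 and 2.45 FPKM, but 1.5-fold higher in siRAD21 (0.68) and siEED (0.66) and lower in siBRCA1 (-0.66). FN1 was highest in siKDM1A (15.5 FPKM against 5.24 FPKM).

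The other splicing regulators of the epithelial to mesenchymal switch were all kept, and 3 of 144 pairs were 1.5-fold higher and 16 lower. HNRNPM, PTBP1, SRSF1 and MBNL1 were each highest in siControl2 of all 13 libraries. HNRNPM, which favours mesenchymal splice forms, was at 95.4 FPKM in siFOXM1 against 153 FPKM in siControl2, and MBNL1 was 1.5-fold lower in 8 knockdowns. Thus 8 of the 16 lower pairs were MBNL1 alone, and the count rests on a control library in which these 4 genes were at their highest. RBM24 was 2-fold lower in siRAD21 (1.36 FPKM), siFOXA1 (2.28 FPKM) and siCTCF, against 7.53 FPKM in siControl2. RBM47 was highest in siFOXA1 (73.6 FPKM against 43.6 FPKM), where both ESRP genes were lowest. Of 10 genes whose transcripts ESRP proteins splice, 9 were kept, and 2 of 108 pairs were 1.5-fold lower and none higher.

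**Figure D5:**
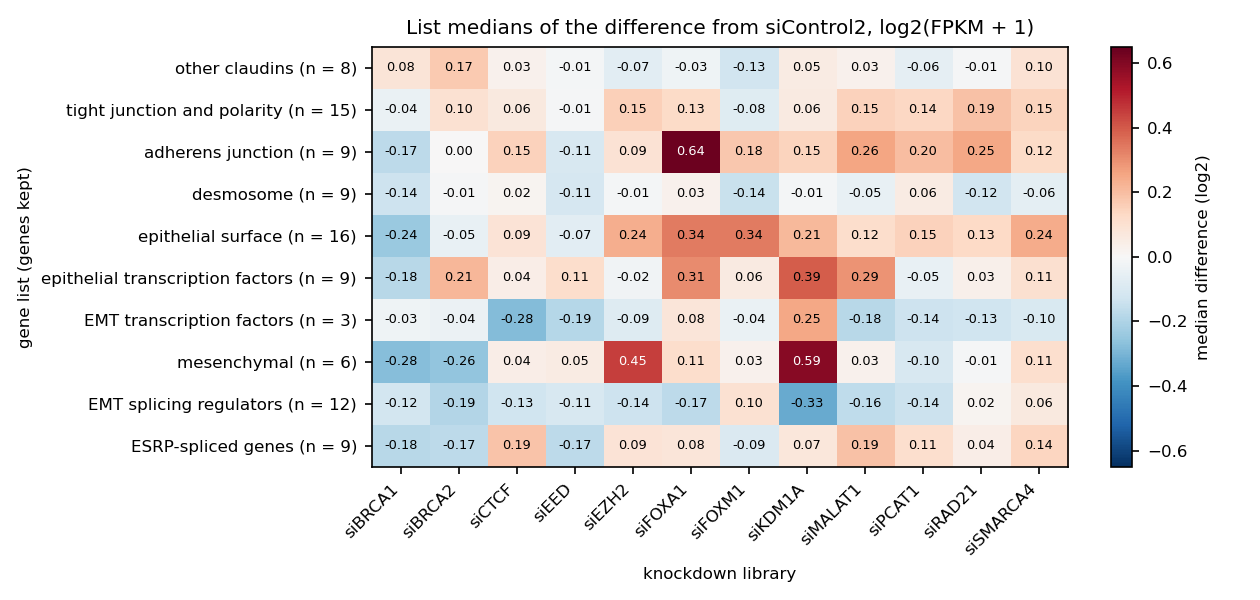
Median difference from siControl2, log2(FPKM + 1), of each of 10 lists of related genes in each knockdown, 1 library per cell. The adherens junction list in siFOXA1, at 0.64, is the high end among lists of 9 or more genes, and the splicing regulator list lies below 0 in 9 of 12 knockdowns, against 6 of 12 with the median over the other knockdowns in place of siControl2.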

How the data were processed

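RNA from 13 LNCaP-abl cultures, 12 knockdowns and 1 control, was sequenced on an Illumina HiSeq instrument from TruSeq libraries, per the labels' protocols. TopHat, Cufflinks and the hg19 build are named in the submitters' processing notes, with no versions. The authors deposited log2 values of FPKM for 22613 gene entries per library. The floor of the values gives an offset of 0.1, which no label states. The sorted values of the libraries differ by at most 0.0562 on the log2 scale, so they had been brought to a common distribution, a step no label records, and a level reflects rank within its library. The sources used here do not say whether strand was used. Overlapping genes, such as KRT8 with KRT18, ELP5 with CLDN7 and NFATC3 with ESRP2, may therefore share reads. No counts were used, depth is unknown, and intervals cannot be given.

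FPKM were recovered by subtracting the offset and expressed as log2(FPKM + 1). Entries with a mean of at least 0.5 FPKM were kept after 749 small RNA entries were left out, which left 15786, all 10 members included. A fold of 1.5 or 2 from siControl2 served as the description of a difference. The named genes were the members, the siRNA targets, the most abundant and most changed genes of each list, the 3 genes most like each member (mean of at least 1 FPKM, SD of at least 0.2) and neighbouring genes, with exceptions marked. Some genes that these rules name were left out of the text. The members and lists were chosen with earlier results of these data known. Alternatives were a pseudocount of 0.1, quantile normalization, centring, the median of the other 11 knockdowns as reference, no filter, small RNA entries kept, Spearman's rho, leaving out siFOXA1 with siFOXM1 or siControl2, and pseudogene entries added. Gene order came from RefSeq (GRCh38.p14), used for names only. Scripts ran in Python 3.11.15 with pandas 2.3.3 and NumPy 2.4.6, and were tested on simulated data.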

Additional observations from a re-analysis of the deposited data

How the results depend on the processing

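Each condition had 1 library, so no replicate could be left out. No paired analysis was possible because no result comes from a test and the groups hold 1 library each. Against the median over the other 11 knockdown libraries, the count of pairs at least 2-fold lower was 0, against 7 with siControl2, and KRT19 changed side in 3 libraries, with differences of 0.57 in siBRCA2, 0.18 in siEED and 0.55 in siPCAT1. The cause was not tested. Under that reference the pairs at least 1.5-fold higher numbered 6 and those lower 10, and 21 of the 120 differences had the other sign. The other reference moved 16 differences across the 1.5-fold rule and reversed 3, and leaving out siFOXA1 and siFOXM1 moved 16 of the 45 correlations between members across 0.5 in size. Under a pseudocount of 0.1, quantile normalization and centring, the counts of pairs at 1.5-fold and 2-fold stayed within 1.5 times of those reported. The libraries already had a common distribution, so quantile normalization and centring could change little, and their outcome is no check on the counts. The background share at 1.5-fold in either direction was 11.1%, 8.71% with no filter and 12.5% with small RNA entries kept. Unknown depth limits the low genes most, KRT19 and CLDN3 among them.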
